A study of Homo sapiens with 18 samples.

Results

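The miR-23, miR-24 and miR-27 families are made from 2 paralogous clusters of hairpins, the miR-23a/27a/24-2 cluster (cluster a) and the miR-23b/27b/24-1 cluster (cluster b). The 7 mature miRNAs described here, of 2167 mature miRNAs listed, were taken by name as products of these clusters. They are miR-23a-3p (HSA-MIR-23A-3P), miR-27a-3p (HSA-MIR-27A-3P) and miR-27a-5p (HSA-MIR-27A-5P) of cluster a. Cluster b gives miR-23b-3p (HSA-MIR-23B-3P), miR-27b-3p (HSA-MIR-27B-3P) and miR-27b-5p (HSA-MIR-27B-5P), and both clusters encode miR-24-3p (HSA-MIR-24-3P). Small-RNAseq was done on whole cell RNA of wild-type HCT116, an established human colorectal carcinoma line. Cells were collected on day 3 at 50% confluency, on day 5 at 250% and on day 7 at 400% as labelled, with 3 libraries from biological replicates per day. Whole transcriptome RNAseq of the same wild-type line was used for day 3 and day 5, with 3 libraries per day. The transcriptome of day 7 was not used here. Days in culture and confluency rose together in these groups, so the effects of time and of cell density cannot be told apart, and all values are averages over the cells of a dish.

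A microRNA guides Argonaute proteins to messenger RNAs, mainly by pairing of its seed, the bases near its 5′ end, with sites in the 3′UTR, and the usual result is lower expression of the target. A hairpin precursor can give a mature product from either arm, named 5p and 3p, and usually one arm is loaded into Argonaute more often than the other. The miR-23a cluster is transcribed with its own noncoding host transcript, whereas the miR-23b cluster lies in introns of a protein-coding gene.

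The mature sequences show why the a and b products are compared as families: the 3p arms of both miR-23 and both miR-27 genes share a seed, whereas the miR-27 5p arms do not. The sequences below come from RefSeq (GRCh38.p14), written 5′ to 3′, and capitals mark the seed, bases 2 to 8. The first pair shares the miR-23 seed, the second pair the miR-27 seed, and the last 3 have seeds of their own.
miR-23a-3p: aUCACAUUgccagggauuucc
miR-23b-3p: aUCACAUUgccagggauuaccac
miR-27a-3p: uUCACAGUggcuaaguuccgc
miR-27b-3p: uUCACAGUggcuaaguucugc
miR-24-3p: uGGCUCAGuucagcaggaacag
miR-27a-5p: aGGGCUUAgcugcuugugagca
miR-27b-5p: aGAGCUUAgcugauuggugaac

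With positions counted from 1 at the 5′ end of the a product, miR-23a-3p and miR-23b-3p differ by U19A and by 2 further bases at the 3′ end of the b product. miR-27a-3p and miR-27b-3p differ by C19U alone. The 5p arms of miR-27a and miR-27b differ at 8 of 22 positions, one of which, G3A, lies in the seed. The a and b 3p products can therefore be told apart only by the 3′ end of a read, and how reads that fit both were assigned is not given in the sources used here. The 22 bases of miR-24-3p are the same from both clusters, so its value cannot be divided between them.

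On GRCh38 the hairpins of cluster a occupy 373 bases on the minus strand of chromosome 19 (chr19:13836287-13836659), within an exon of the noncoding gene MIR23AHG. The hairpins of cluster b occupy 881 bases on the plus strand of chromosome 9 (chr9:95085208-95086088), within the gene of the aminopeptidase AOPEP. MIR23B and MIR27B were intronic in all 7 AOPEP transcripts that span them, and MIR24-1 overlapped an exon of 1 of the 7.

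The deposited small RNA values are normalized log2 values. The sum of the back-transformed values ranged from 1542087 (day 3, replicate 3) to 1947371 on day 3, from 1712225 to 1884026 on day 5 and from 2452607 to 2600754 on day 7, so the deposited scale kept a mean miRNA total that was 1.41 times higher on day 7 than on day 3. Each change is therefore given on this scale and, where it matters, relative to the miRNA total or the median miRNA of each library. The sequencing depth of each library is unknown from these values, and the study gives only a range over its small RNA libraries. In the whole transcriptome 27470978 to 56689369 reads per library were counted on genes. The epithelial marker EPCAM had normalised values of 6932 to 7403 in the 6 libraries (log2 change from day 3 to day 5 of 0.0022), whereas CDH1 rose by 2.63, KRT8 by 1.05, KRT18 by 0.93 and CDX2 by 0.44, all called by limma (adjusted p = 1.00e-04 to 0.00889), and VIL1 did not exceed 5.18. The leukocyte markers PTPRC, CD3E and CD68 did not exceed 5.42. Of the mesenchymal genes, COL1A1 had 483 to 566 on day 3 and 1092 to 1156 on day 5, COL1A2 did not exceed 26.9 and DES did not exceed 80.8. By limma COL1A1 (log2 change 1.12, adjusted p = 2.89e-04) and DES (0.55, adjusted p = 0.0463) were called higher, as were 29.3% of all genes. COL1A2 was not called (-0.39, adjusted p = 0.400), and the call on DES was lost without the filter on low values (adjusted p = 0.126). The part of these genes in the results on host genes and targets was not tested.

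The miR-27 3p arms were by far the most abundant members. On day 3 the log2 level of miR-27b-3p was 14.92, 14.97 and 14.59 in the 3 libraries, or 16372 ± 351 CPM (SD, n = 3), where CPM is relative to the mature miRNA total of a library. miR-27a-3p had log2 levels of 14.25, 14.32 and 14.07, or 10696 ± 411 CPM. They ranked 16 to 17 and 19 to 21 among all mature miRNAs in these libraries.

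The miR-23 3p arms followed, with log2 levels of 11.41, 11.49 and 11.19 for miR-23b-3p and 11.37, 11.36 and 11.06 for miR-23a-3p. The corresponding values were 1485 ± 25.6 and 1381 ± 33.8 CPM. miR-24-3p, with a potential contribution from both clusters, was lower, at log2 levels of 9.81, 9.87 and 9.54 and 481 ± 1.49 CPM. Day 3 replicate 3 was the lowest of the 3 libraries for all 5 of these 3p products on the log2 scale, and it also had the lowest miRNA total.

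The 5p arms were rare. miR-27a-5p had log2 levels of 8.48, 8.60 and 8.37 (202 ± 11.9 CPM) and miR-27b-5p of 7.22, 7.42 and 7.30 (90.1 ± 11.3 CPM). The order miR-27b-3p, miR-27a-3p, miR-23b-3p, miR-23a-3p, miR-24-3p, miR-27a-5p, miR-27b-5p was the same in 9 of 9 libraries. The closest neighbours were miR-23b-3p and miR-23a-3p, whose log2 ratio within a library was between 0.02 and 0.24 in favour of miR-23b-3p. Their levels overlapped between libraries of the same day on days 3 and 7. Differences between miRNAs also hold any difference in adapter ligation, which was not tested.

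**Figure D1:**
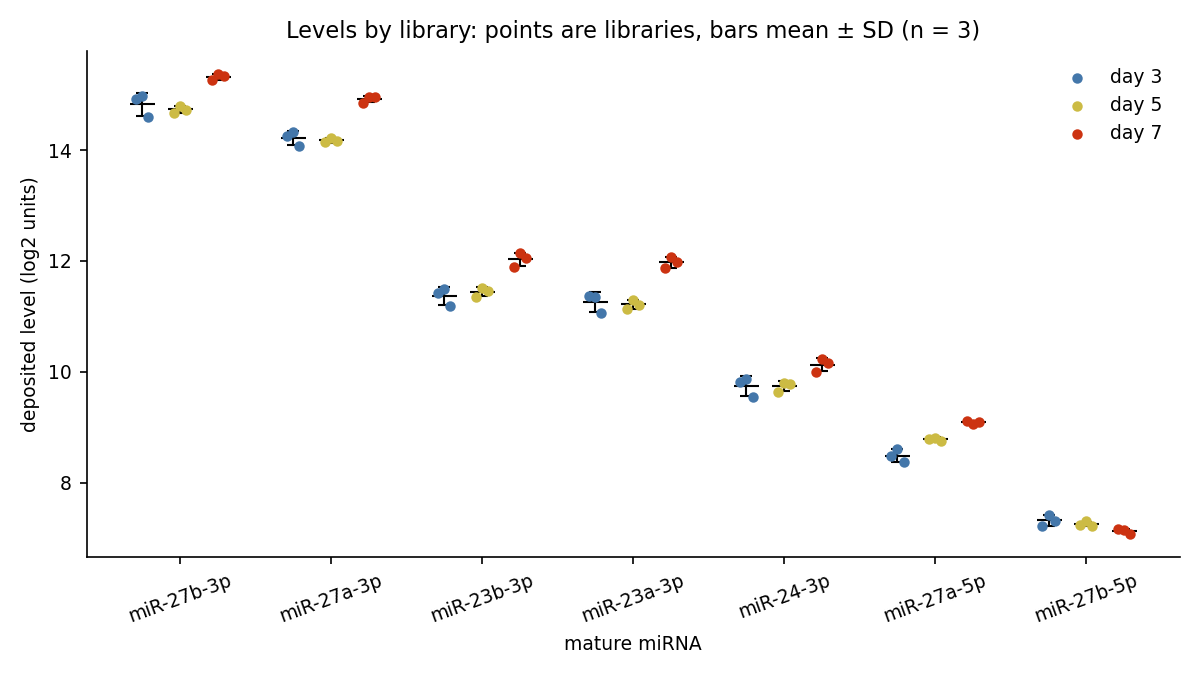
Deposited log2 level of each member (y axis) in each small RNA library, with 3 libraries per day as points and the mean ± SD as bars. The 3 day 7 libraries lie above all day 3 libraries for 6 members, and below them for miR-27b-5p. Of all miRNAs tested, 65.7% had no overlap between these days.

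The other products of the same hairpins were scarce. miR-23a-5p had 39.1 ± 8.81 CPM on day 3 and miR-24-2-5p 7.45 ± 1.75, whereas miR-23b-5p (4.73 ± 1.20) and miR-24-1-5p (1.02 ± 0.373) did not reach the minimum level for testing, a back-transformed value of 10 in 3 libraries. For each of these passenger products the cluster a form was the more abundant, and for miR-23a-5p over miR-23b-5p the mean ratio was 8.34-fold on day 3 and 14.9-fold on day 7.

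On day 7, 6 of the 7 members increased from day 3 to day 7 on the deposited scale. By limma with Benjamini-Hochberg adjustment over 559 miRNAs, 6 members were called higher and 0 lower, against a background of 45.3% of all tested miRNAs called higher and 8.41% called lower (53.7% in either direction). The members therefore belonged to a change that covered much of the miRNA population, in which the median miRNA rose by 0.30 on the log2 scale. The median change of the 7 members was 0.61. The libraries of both days did not overlap for any member, as for 65.7% of the miRNAs tested.

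Among the 7 members, the changes on the deposited scale were largest for the 3p products of cluster a. miR-27a-3p reached log2 levels of 14.86, 14.95 and 14.96 on day 7, a change of 0.71 ± 0.11 (SE, adjusted p = 0.00101). miR-23a-3p reached 11.88, 12.06 and 11.98, also a change of 0.71 ± 0.12 (adjusted p = 0.00182). Each of these products was higher in all 3 day 7 libraries than in any day 3 library.

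The 3p products of cluster b also rose. miR-23b-3p reached 11.89, 12.14 and 12.05 (change 0.66 ± 0.12, adjusted p = 0.00273) and miR-27b-3p 15.26, 15.37 and 15.33 (change 0.49 ± 0.13, adjusted p = 0.0115). miR-24-3p, from both clusters, reached 10.00, 10.23 and 10.15, a change of 0.39 ± 0.13 (adjusted p = 0.0302). All 3 were without overlap between the days, but the call on miR-24-3p was lost without day 7 replicate 2 (adjusted p = 0.115) or without day 7 replicate 3 (adjusted p = 0.0840). Without the filter on low values, miR-27b-3p (adjusted p = 0.0704) and miR-24-3p (adjusted p = 0.120) were not called.

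The 5p arms moved apart. miR-27a-5p rose to 9.11, 9.06 and 9.09 (change 0.61 ± 0.10, adjusted p = 0.00182). miR-27b-5p had 7.15, 7.14 and 7.08, a change of -0.19 ± 0.10 that did not pass the threshold (adjusted p = 0.146). All 3 day 7 libraries of miR-27b-5p nonetheless lay below all 3 day 3 libraries, and it was the only member with a lower mean on day 7.

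Relative to the miRNA total of each library the picture was different. On that scale 93 miRNAs (16.6%) were called higher and 226 (40.4%) lower, and the median miRNA changed by -0.20. miR-23a-3p and miR-27a-3p were still called higher, each by 0.21 (adjusted p = 0.0266 and 0.0303). miR-27b-5p was called lower, at -0.69 ± 0.10 (adjusted p = 0.00267). The other 4 members were not called, with miR-23b-3p at 0.16, miR-27a-5p at 0.10, miR-27b-3p at -0.0080 and miR-24-3p at -0.11, so that the direction of the last pair depended on the scale.

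With each library centred on its median miRNA, 213 miRNAs (38.1%) were called higher and 59 (10.6%) lower. All 6 members that were higher on the deposited scale were called higher, by 0.25 (miR-24-3p) to 0.57 (miR-23a-3p), and miR-27b-5p was called lower (-0.33 ± 0.11, adjusted p = 0.0486). On all 3 scales, therefore, miR-23a-3p and miR-27a-3p were called higher, and miR-27b-5p had a negative change that was called on 2 of them.

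**Figure D2:**
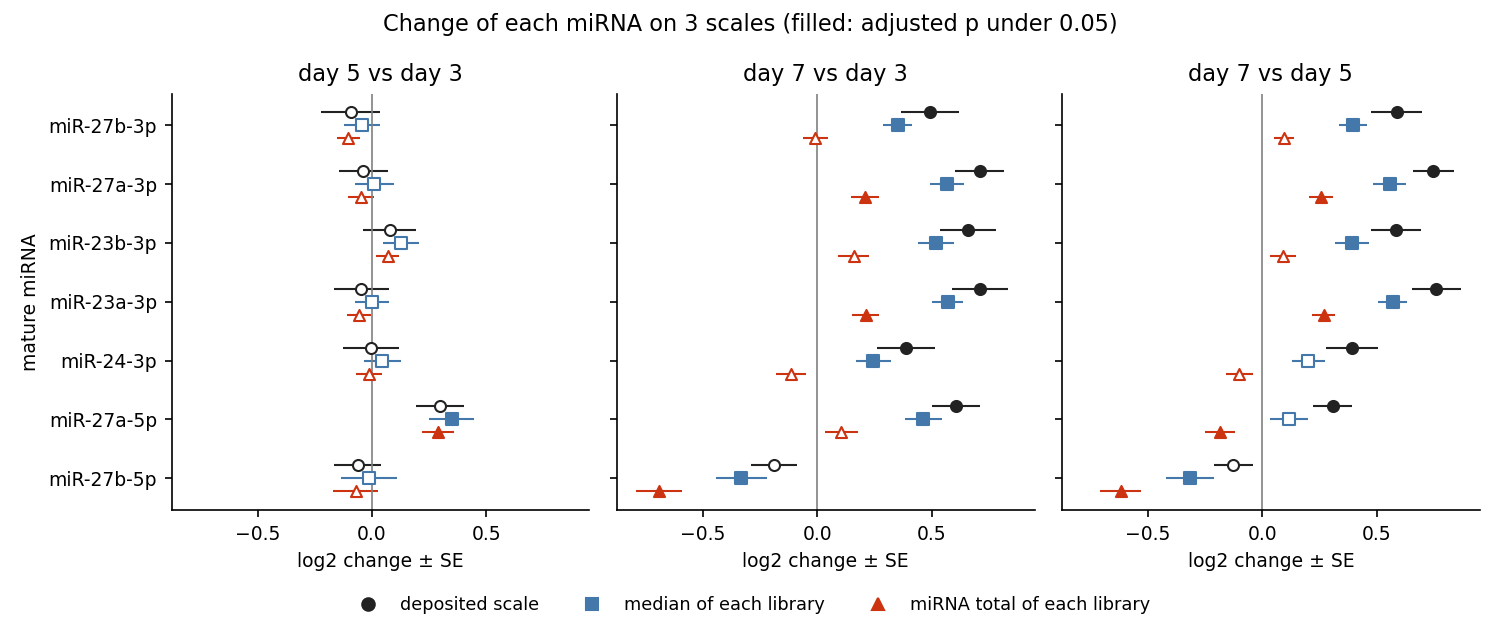
Log2 change ± SE (x axis) of each member in the 3 comparisons, on the deposited scale and relative to the median or the miRNA total of each library, with filled symbols for adjusted p under 0.05. On day 7, miR-23a-3p and miR-27a-3p are called higher on all 3 scales, whereas miR-27b-3p is at -0.0080 relative to the total against day 3.

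Between day 3 and day 5, 0 of 7 members were called by limma over 539 miRNAs, with a background of 14.8% called in either direction, 8.53% higher and 6.31% lower. Among the members the largest change was that of miR-27a-5p. It had log2 levels of 8.79, 8.81 and 8.75 on day 5, all above day 3, a change of 0.30 ± 0.10 (adjusted p = 0.0995). Relative to the miRNA total its change was 0.29 (adjusted p = 0.0301) and relative to the median 0.35 (adjusted p = 0.0437), both past the threshold, with 13.4% and 15.2% of miRNAs called higher on these scales.

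The libraries of the other 6 members overlapped between day 3 and day 5 (34% of the miRNAs tested had no overlap), and their changes ran from -0.09 ± 0.13 for miR-27b-3p to 0.08 ± 0.12 for miR-23b-3p. On day 5 miR-27a-3p had 14.14, 14.22 and 14.16, miR-27b-3p 14.68, 14.80 and 14.72, and miR-24-3p 9.63, 9.79 and 9.78. The 2 miR-23 3p products had 11.14, 11.29 and 11.21 for miR-23a-3p and 11.35, 11.52 and 11.45 for miR-23b-3p.

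Another 5p product of cluster a, miR-23a-5p, rose from log2 levels of 6.04, 6.0 and 6.25 on day 3 to 6.52, 6.74 and 6.58 on day 5. The change of 0.52 ± 0.12 was past the threshold (adjusted p = 0.0227), but relative to the miRNA total it was 0.51 with an adjusted p of 0.0628, and 5 of 6 fits that left out 1 library did not call it (highest adjusted p = 0.0988), nor did the fit without the filter (adjusted p = 0.0901). Its partner miR-23a-3p changed by -0.05 ± 0.12 in the same comparison. miR-27a-5p and miR-23a-5p were thus higher in every day 5 library than in any day 3 library. The third tested 5p product of cluster a, miR-24-2-5p, changed by 0.22 ± 0.18 (adjusted p = 0.448).

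From day 5 to day 7 the 3p products rose. In a fit over all 9 libraries, 6 of 7 members were called higher and 0 lower, with a background of 39.3% higher and 4.94% lower among 567 miRNAs (44.3% in either direction). The libraries of these days did not overlap for any of the 7, as for 63% of miRNAs. miR-23a-3p changed by 0.76 ± 0.11 (adjusted p = 7.98e-04) and miR-27a-3p by 0.75 ± 0.09 (adjusted p = 4.11e-04), followed by miR-27b-3p (0.59 ± 0.11) and miR-23b-3p (0.58 ± 0.11). miR-24-3p (0.39 ± 0.11) and miR-27a-5p (0.31 ± 0.09) were lower in this order, and miR-27b-5p changed by -0.13 ± 0.08 (adjusted p = 0.229).

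Relative to the miRNA total, with 10.6% of miRNAs called higher and 43.4% lower, miR-23a-3p (0.27) and miR-27a-3p (0.26) were called higher. On that scale miR-27a-5p (-0.18, adjusted p = 0.0440) and miR-27b-5p (-0.62, adjusted p = 0.00132) were called lower, the former against its direction on the deposited scale. Relative to the median, with 26.1% called higher and 9.88% lower, 4 members were called higher, miR-27b-5p was called lower (-0.32, adjusted p = 0.0443), and miR-24-3p (0.20) and miR-27a-5p (0.12) were not called. The call on miR-24-3p on the deposited scale was lost without day 5 replicate 1 or without day 7 replicate 2 or 3 (adjusted p = 0.0540 to 0.0749), and without the filter on low values (adjusted p = 0.0730). That on miR-27a-5p was lost without day 5 replicate 3 (adjusted p = 0.0651) or day 7 replicate 1 (adjusted p = 0.0517).

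Ratios between 2 members of the same library do not depend on how the library was scaled. They compare mature products and not the clusters as such. For the a and b 3p pairs they also hold the unknown assignment of reads that fit both. Each change of a ratio was tested by limma with all miRNAs expressed relative to the denominator, and by a two-sided exact permutation test over 3 libraries against 3, which cannot go below p = 0.1.

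The seed-sharing miR-27 3p pair shifted towards the a product by day 7. The log2 ratio of miR-27a-3p to miR-27b-3p was -0.67, -0.65 and -0.52 on day 3, -0.53, -0.58 and -0.56 on day 5, and -0.40, -0.42 and -0.37 on day 7. miR-27a-3p was thus the lower of the pair in every library, at 0.653 of the level of miR-27b-3p on day 3 and 0.759 on day 7. The change between day 3 and day 7 was 0.22 ± 0.07 (adjusted p = 0.0422, exact permutation p = 0.1), and 52.3% of all miRNAs were called relative to miR-27b-3p. The call was lost when any 1 library other than day 3 replicate 3 was left out (adjusted p up to 0.123). From day 3 to day 5 the change was 0.06 ± 0.07 (adjusted p = 0.538, 33.5% called). Between day 5 and day 7 the change was 0.16 ± 0.06 (adjusted p = 0.0420, with 61.5% of miRNAs called), and of the fits without 1 library only those without day 3 replicate 1 or 3 called it (adjusted p up to 0.113 in the others).

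In the miR-23 3p pair the ratio was lowest on day 5. The log2 ratio of miR-23a-3p to miR-23b-3p was -0.05, -0.13 and -0.13 on day 3, -0.22, -0.23 and -0.24 on day 5, and -0.02, -0.07 and -0.07 on day 7. All 3 day 5 libraries were below the rest. The change from day 3 to day 5 was -0.12 ± 0.06 (adjusted p = 0.203, 20.8% of miRNAs called), from day 5 to day 7 0.18 ± 0.06 (adjusted p = 0.0404, 57.8% called) and from day 3 to day 7 0.05 ± 0.08 (adjusted p = 0.609, 59.9% called). The call between day 5 and day 7 was lost when any 1 library other than day 3 replicate 3 was left out (adjusted p up to 0.106).

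Of the member ratios tested between the clusters, that of the 5p arms of miR-27 changed most from day 3 to day 7. The log2 ratio of miR-27a-5p to miR-27b-5p was 1.25, 1.18 and 1.07 on day 3, 1.55, 1.51 and 1.53 on day 5, and 1.96, 1.92 and 2.02 on day 7, with no overlap between any 2 days. The mean ratio was 2.25-fold on day 3, 2.89-fold on day 5 and 3.90-fold on day 7. The change between day 3 and day 7 was 0.80 ± 0.12 (adjusted p = 2.66e-04), with 69.0% of miRNAs called relative to miR-27b-5p. That between day 5 and day 7 was 0.44 ± 0.09 (adjusted p = 0.00222, 62.5% called). That between day 3 and day 5 was 0.36 ± 0.11 (adjusted p = 0.0465, 16.9% called), and 4 of the 6 fits without 1 library, those without day 3 replicate 2 or any day 5 library, did not call it (adjusted p up to 0.181).

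**Figure D3:**
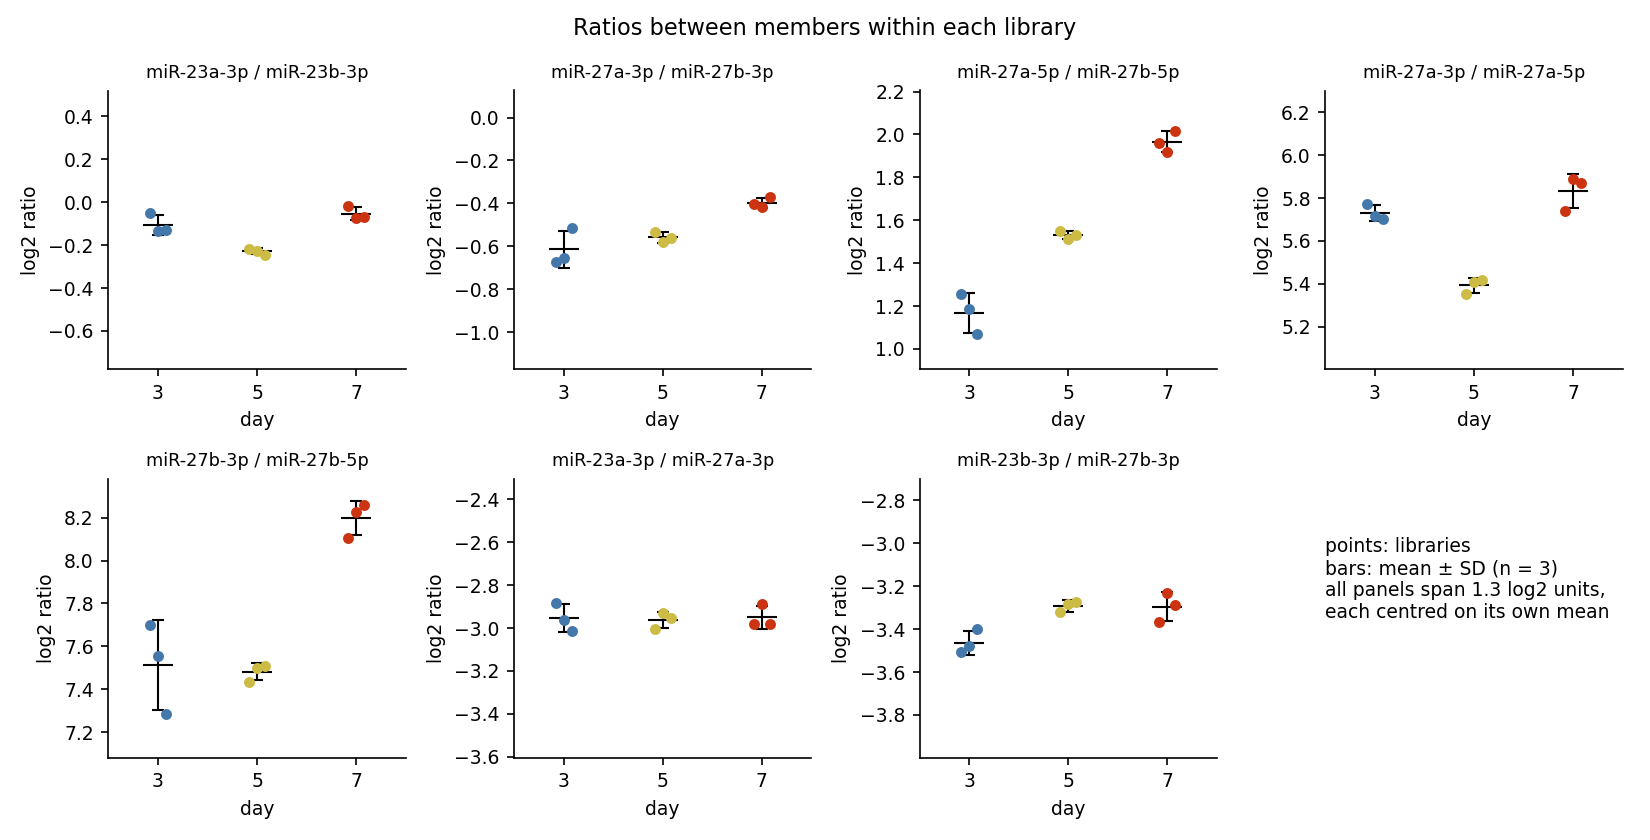
Log2 ratio of 2 members (y axis) in each library by day, with 3 libraries per day as points and the mean ± SD as bars; every panel spans the same number of log2 units. The ratio of miR-27a-5p to miR-27b-5p rises from a mean of 1.17 to 1.97, whereas that of miR-23a-3p to miR-27a-3p stays between -3.01 and -2.88.

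In the miR-27a hairpin the excess of the 3p arm dipped on day 5. The log2 ratio of miR-27a-3p to miR-27a-5p was 5.77, 5.72 and 5.70 on day 3, 5.35, 5.41 and 5.42 on day 5, and 5.74, 5.89 and 5.87 on day 7, or a mean of 53.1-fold, 42.0-fold and 57-fold. The day 5 libraries were below all others. The change was -0.34 ± 0.07 from day 3 to day 5 (adjusted p = 0.0113, with 40.0% of miRNAs called relative to miR-27a-5p), and 0.44 ± 0.07 from day 5 to day 7 (adjusted p = 0.00217, 34.1% called). From day 3 to day 7 it was 0.10 ± 0.08 (adjusted p = 0.308, 57.5% called). Every fit without 1 library called both of the former changes.

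In the miR-27b hairpin the ratio rose between day 5 and day 7. The log2 ratio of miR-27b-3p to miR-27b-5p was 7.70, 7.55 and 7.29 on day 3, 7.44, 7.5 and 7.51 on day 5, and 8.11, 8.23 and 8.26 on day 7. Days 3 and 5 overlapped, and all day 7 libraries were above both. The mean excess of the 3p arm was 183-fold, 179-fold and 293-fold. The change was 0.68 ± 0.14 from day 3 to day 7 (adjusted p = 0.00160, with 69.0% of miRNAs called relative to miR-27b-5p). From day 5 to day 7 it was 0.71 ± 0.11 (adjusted p = 6.79e-04, 62.5% called). From day 3 to day 5 it was -0.03 ± 0.13 (adjusted p = 0.878, 16.9% called).

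The miR-23a hairpin, for which no test was planned, had log2 ratios of miR-23a-3p to miR-23a-5p of 5.32, 5.36 and 4.81 on day 3, 4.61, 4.55 and 4.63 on day 5, and 5.18, 5.20 and 5.09 on day 7. Here too the day 5 libraries were the lowest. Day 3 replicate 3 was the lowest day 3 library.

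Within cluster a, the ratio of miR-23a-3p to miR-27a-3p was close on all 3 days. The log2 ratio of miR-23a-3p to miR-27a-3p had means of -2.95, -2.96 and -2.95 on days 3, 5 and 7, and the 3 changes were between -0.0089 and 0.012 with SE of 0.06 to 0.07. The days overlapped, and relative to miR-27a-3p 65.9% of all miRNAs were called between days 3 and 7, 28.6% between days 3 and 5 and 74.9% between days 5 and 7. Among 210 miRNAs with at least 100 CPM on average, miR-23a-3p was the one whose ratio to miR-27a-3p varied least over the 9 libraries, with an SD of 0.047 against a median of 0.24.

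By the same measure miR-222-3p (SD 0.055), miR-125a-5p (0.075) and miR-186-5p (0.079), which lie outside both clusters, came next. miR-23b-3p ranked 12, miR-27b-3p 23, miR-24-3p 61 and miR-27a-5p 83. The 5p arm of the same hairpin therefore followed miR-27a-3p less closely than these 3 did. These SDs are descriptions over 9 libraries that share the differences between days.

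Within cluster b the log2 ratio of miR-23b-3p to miR-27b-3p was -3.51, -3.48 and -3.40 on day 3, -3.32, -3.28 and -3.27 on day 5, and -3.37, -3.23 and -3.29 on day 7. Day 3 was below the other days in every library. The changes of 0.17 ± 0.06 to day 5 (adjusted p = 0.0689) and 0.17 ± 0.07 to day 7 (adjusted p = 0.0870) did not pass the threshold, although the former did without day 3 replicate 3 (adjusted p = 0.0211). From day 5 to day 7 the change was -0.0036 ± 0.06 (adjusted p = 0.959).

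Among the 210 compared miRNAs of at least 100 CPM on average, those most like miR-27b-3p were not products of its cluster. miR-27b-5p, the other arm of its hairpin, was below this minimum and was not compared (90.1, 85.3 and 55.5 CPM on days 3, 5 and 7). miR-29a-3p (SD 0.029), miR-151a-5p (0.043) and miR-126-5p (0.050) were the nearest, whereas miR-24-3p ranked 18, miR-23b-3p 20, miR-23a-3p 27, miR-27a-3p 29 and miR-27a-5p 98 of 210.

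The ratio of miR-24-3p to both miR-27 3p products was lowest in the day 7 libraries. Its log2 ratio to miR-27a-3p had means of -4.47 on day 3, -4.44 on day 5 and -4.80 on day 7, and that to miR-27b-3p of -5.09, -5.0 and -5.19. These ratios were not tested. At the MIR24-1 locus the annotation also places miR-3074, a hairpin on the opposite strand, and 20 of the 21 bases of miR-3074-5p are the reverse complement of miR-24-3p. miR-3074-5p, named here after its values were seen, had log2 levels of 8.31 to 8.67 on day 3, 8.31 to 8.43 on day 5 and 8.79 to 8.97 on day 7, with a change of 0.32 ± 0.13 from day 3 to day 7 (adjusted p = 0.0683). Relative to the miRNA total the direction turned, and it was called lower (-0.19 ± 0.06, adjusted p = 0.0389). On that scale the median miRNA changed by -0.20 and 40.4% of miRNAs were called lower.

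The 7 members made up 3.07%, 3.06% and 3.08% of the mature miRNA total in the day 3 libraries. On day 5 they made up 2.95%, 2.89% and 2.94%, and on day 7 3.19%, 3.26% and 3.34%. The days did not overlap, and each pair of days had an exact permutation p of 0.1 (0.125 after adjustment over 15 share tests), the smallest that 3 libraries against 3 allow.

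The miR-27 3p family held most of it, with 2.71% ± 0.00900 on day 3, 2.56% ± 0.0304 on day 5 and 2.86% ± 0.0634 on day 7 (SD, n = 3). The miR-23 3p family held 0.287% ± 0.00372, 0.288% ± 0.00367 and 0.326% ± 0.0156. miR-24-3p held 0.0481% ± 1.49e-04, 0.0477% ± 0.00184 and 0.0445% ± 0.00241. The share of miR-24-3p was lower in every day 7 library than on days 3 and 5, opposite to the shares of the miR-23 and miR-27 3p families (exact permutation p = 0.1 for each). By limma relative to the miRNA total, miR-24-3p changed by -0.11 from day 3 and -0.10 from day 5, neither called (adjusted p = 0.170 and 0.166). The median miRNA changed by -0.20 and -0.24 on that scale, with 40.4% and 43.4% called lower. miR-27a-3p changed by 0.21 and 0.26, and miR-27b-3p by -0.0080 and 0.09.

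The 2 miR-27 5p arms together held 0.0292% ± 0.00232 on day 3, 0.0332% ± 0.00130 on day 5 and 0.0272% ± 0.00119 on day 7. Day 5 was above both other days without overlap (exact permutation p = 0.1 for each), and days 3 and 7 overlapped.

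The host genes of the 2 clusters had changes of opposite sign. MIR23AHG (ENSG00000267519), the noncoding host of cluster a, had normalised values of 118, 101 and 85.1 on day 3 and 192, 248 and 169 on day 5. All day 5 libraries were higher, with a log2 change of 0.99 ± 0.18 on the log2(value + 1) scale (limma, adjusted p = 0.00507 over 20129 genes). In this comparison 56.9% of genes were called, 29.3% higher and 27.6% lower. The number of reads behind these values was 358 on day 3 and 571 on day 5.

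AOPEP (ENSG00000148120), which holds cluster b, had 1099, 985 and 992 on day 3 and 900, 809 and 840 on day 5, with no overlap. Its log2 change of -0.27 ± 0.09 had an adjusted p of 0.0385. The call was lost with library totals as scale (-0.20, adjusted p = 0.165), with a replicate block (adjusted p = 0.0602), without the filter on low values (adjusted p = 0.165) and when any 1 library other than day 3 replicate 3 was left out (adjusted p up to 0.123). The 3p products of the clusters had changes of between -0.09 and 0.08 in the same days, as given above. A value of AOPEP counts reads of the whole gene and is no measure of the primary transcript of the cluster alone.

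The hairpin genes themselves were near the limit of detection in the whole transcriptome, and none of the 4 of 6 hairpin genes with a row passed the filter. Summed over the 3 libraries of day 3 and then of day 5, MIR23A had 11 and 20 reads and MIR27A 0 and 8. MIR23B had 21 and 5 reads and MIR27B 24 and 29. Only for MIR23B did the normalised values of the days not overlap.

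For each family a list of target genes known from textbooks was examined in the whole transcriptome, between the days for which 0 of 7 members were called. Of 22 listed genes 21 were tested; 12 were called higher, 2 lower and 7 not called. The median log2 change was 0.61, against 0.01 for all genes, and the background was 29.3% higher and 27.6% lower. Over the miR-27 list the median was 0.73, over the miR-23 list 0.36 and over the miR-24 list 0.13.

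To see which listed genes hold a seed match, the 3′UTR of the canonical transcript was searched on the transcript strand for the 7 letters that pair with bases 2 to 8, AATGTGA for miR-23, CTGAGCC for miR-24 and ACTGTGA for miR-27. An adenine after these letters makes an 8-letter match. Of 19229 3′UTRs, with a median length of 1064 bases, 18.6% held the miR-23 letters, 15.8% the miR-24 letters and 15.7% the miR-27 letters, and 8.83%, 5.53% and 5.95% held the 8-letter form. These shares were not matched for length, and the 3′UTRs of the listed textbook targets ranged from 137 bases (AURKB) to 11357 (HIPK2). Of the 21 tested targets 14 held the 7 letters of their own family, and 8 of these were called higher, 1 lower and 5 not called. Of the 7 without them, 4 were called higher, 1 lower and 2 not called. Another form, of 6 letters that pair with bases 2 to 7 followed by an adenine, was also counted, and it overlaps the 8-letter match. It is ATGTGAA for miR-23, TGAGCCA for miR-24 and CTGTGAA for miR-27, in 19.3%, 21.4% and 18.8% of all 3′UTRs. Of the same 7 targets, the 4 called higher (LMNB1, MYC, ZBTB10 and CYP1B1) held this form for their own family, and E2F2, AURKB and CDKN2A did not. The other 14 targets did not divide in this way. APAF1, BCL2L11, SPRY2, RXRA, HIPK2 and ABCA1 held the form and were called higher. XIAP, MTSS1, FBXW7 and PPARG held it and were not called, and PHB1 held it and was called lower. FURIN and FOXO1 lacked it and were called higher, and H2AX lacked it and was not called. A match is a description of the sequence and not a site shown to be bound.

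Of the miR-23 list 2 of 4 tested genes were higher and 0 lower, with 29.3% of all genes called higher and 27.6% lower. APAF1, the scaffold of the apoptosome, had 1444, 1581 and 1497 on day 3 and 2667, 2622 and 2818 on day 5 (log2 change 0.84 ± 0.08, adjusted p = 4.21e-04). Its 3′UTR held 3 matches of 8 letters, shown here because no other target of the list had as many. They are in 25 bases of GRCh38, plus strand, and capitals mark the match.
APAF1, chr12:98732789-98732813: taggatgcaaatgaaAATGTGAAta
APAF1, chr12:98734025-98734049: aagatttttctaagaAATGTGAAat
APAF1, chr12:98734717-98734741: actgtgatttaagcaAATGTGAAaa

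LMNB1, which encodes lamin B1, had 3727, 4653 and 4633 on day 3 and 6485, 6034 and 6261 on day 5 (0.54 ± 0.11, adjusted p = 0.00784). Its 3′UTR held no AATGTGA but 2 of the other form, ATGTGAA. XIAP, an inhibitor of caspases, and MTSS1, a membrane-bending protein, overlapped between the days, with changes of 0.02 ± 0.08 and 0.19 ± 0.11. CXCL12 did not pass the filter.

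Of the miR-24 list 3 of 7 genes were higher and 1 lower, with 56.9% of all genes called in either direction (29.3% higher, 27.6% lower). FURIN, a protease that processes proproteins, had 617, 757 and 819 on day 3 and 2401, 2509 and 2629 on day 5, a change of 1.79 ± 0.12 (adjusted p = 2.27e-04). MYC, a transcription factor of growth, rose by 1.03 ± 0.13 (adjusted p = 0.00104) and BCL2L11, the proapoptotic protein BIM, by 0.61 ± 0.08 (adjusted p = 0.00114). In all 3 genes every day 5 library was above every day 3 library. BCL2L11 was the only listed miR-24 target with 8-letter matches, shown on the plus strand of GRCh38.
BCL2L11, chr2:111164658-111164682: cccctgcagtggaaaCTGAGCCAgc
BCL2L11, chr2:111166894-111166918: catattacttatcaaCTGAGCCAaa

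CDKN2A, a cell cycle inhibitor, changed by -0.27 ± 0.09 (adjusted p = 0.0488), a call that none of the 6 fits without 1 library kept (adjusted p = 0.0577 to 0.138) and that was also lost with a replicate block (adjusted p = 0.121), without the filter (adjusted p = 0.183) and with library totals (adjusted p = 0.0746). H2AX, E2F2 and AURKB, of DNA damage marking, S phase entry and chromosome segregation, changed by -0.11 ± 0.17, -0.12 ± 0.13 and 0.13 ± 0.12 and were not called.

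Of the miR-27 list 7 of 10 genes were higher and 1 lower, against the same 29.3% and 27.6% of all genes. HIPK2, a kinase of the stress response, had 2871, 3877 and 3795 on day 3 and 9674, 9963 and 10040 on day 5 (1.51 ± 0.13, adjusted p = 3.70e-04). RXRA, a nuclear receptor, had 752, 807 and 971 and then 2186, 1819 and 2019 (1.25 ± 0.13, adjusted p = 5.52e-04). FOXO1, a transcription factor restrained by insulin signalling, had 348, 423 and 420 and then 763, 722 and 871 (0.98 ± 0.12, adjusted p = 9.83e-04). Each was higher in all day 5 libraries.

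ZBTB10, a repressor of specificity protein genes, rose by 0.98 ± 0.10 (adjusted p = 5.95e-04). CYP1B1, a cytochrome P450, rose by 0.76 ± 0.19, SPRY2, an inhibitor of receptor tyrosine kinase signalling, by 0.70 ± 0.18, and ABCA1, a cholesterol exporter, by 0.69 ± 0.21. The last pair lost its call in some fits without 1 library, SPRY2 without day 3 replicate 1 (adjusted p = 0.0529) and ABCA1 without day 5 replicate 1 (adjusted p = 0.0716) or replicate 2 (adjusted p = 0.0830). Without the filter on low values CYP1B1 (adjusted p = 0.0544), SPRY2 (adjusted p = 0.0606) and ABCA1 (adjusted p = 0.0855) were not called.

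PHB1, the mitochondrial chaperone prohibitin, fell from 12246, 13040 and 15697 to 8294, 7470 and 7747 (-0.79 ± 0.12, adjusted p = 0.00191). FBXW7, a ubiquitin ligase subunit that marks MYC and other proteins for degradation, had 1856, 1873 and 1866 and then 1557, 1576 and 1734, with no overlap but an adjusted p of 0.0680 (-0.20 ± 0.08). It was called lower by edgeR (adjusted p = 0.0144) and DESeq2 (adjusted p = 0.0434) on the recovered reads. PPARG, a nuclear receptor of fat storage, changed by -0.23 ± 0.12 (adjusted p = 0.144), and was called lower by edgeR (adjusted p = 0.0216) but not by DESeq2 (adjusted p = 0.0796). Matches of the same 8 letters thus stood in genes that were higher and in genes that were not, as HIPK2, PHB1 and FBXW7 show on the minus strand of GRCh38.
HIPK2, chr7:139570688-139570712: ctccctcaaggatctACTGTGAAag
PHB1, chr17:49404890-49404914: cccaccccagaaatcACTGTGAAat
FBXW7, chr4:152322369-152322393: aagcttaaaaaaattACTGTGAAtt

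IGF1R, the receptor of insulin-like growth factor 1, and NOTCH3, a Notch receptor, are candidate targets with miR-27a complementarity in the study, chosen in part for their higher expression in dense cultures, so their direction is not independent evidence. IGF1R had 509, 529 and 527 on day 3 and 1760, 1902 and 1836 on day 5 (1.81 ± 0.07, adjusted p = 1.17e-04). NOTCH3 had 291, 344 and 326 and then 2167, 2139 and 2397 (2.80 ± 0.10, adjusted p = 1.00e-04). The letters ACTGTGA were not in the canonical 3′UTR of either gene (7088 and 1624 bases). The other form, CTGTGAA, was found once in NOTCH3 and not in IGF1R. The study looked for complementarity within regions that it found bound by AGO2, an Argonaute protein. Those regions and its match rule were not used here, so the sites of the study were not tested by this search.

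**Figure D4:**
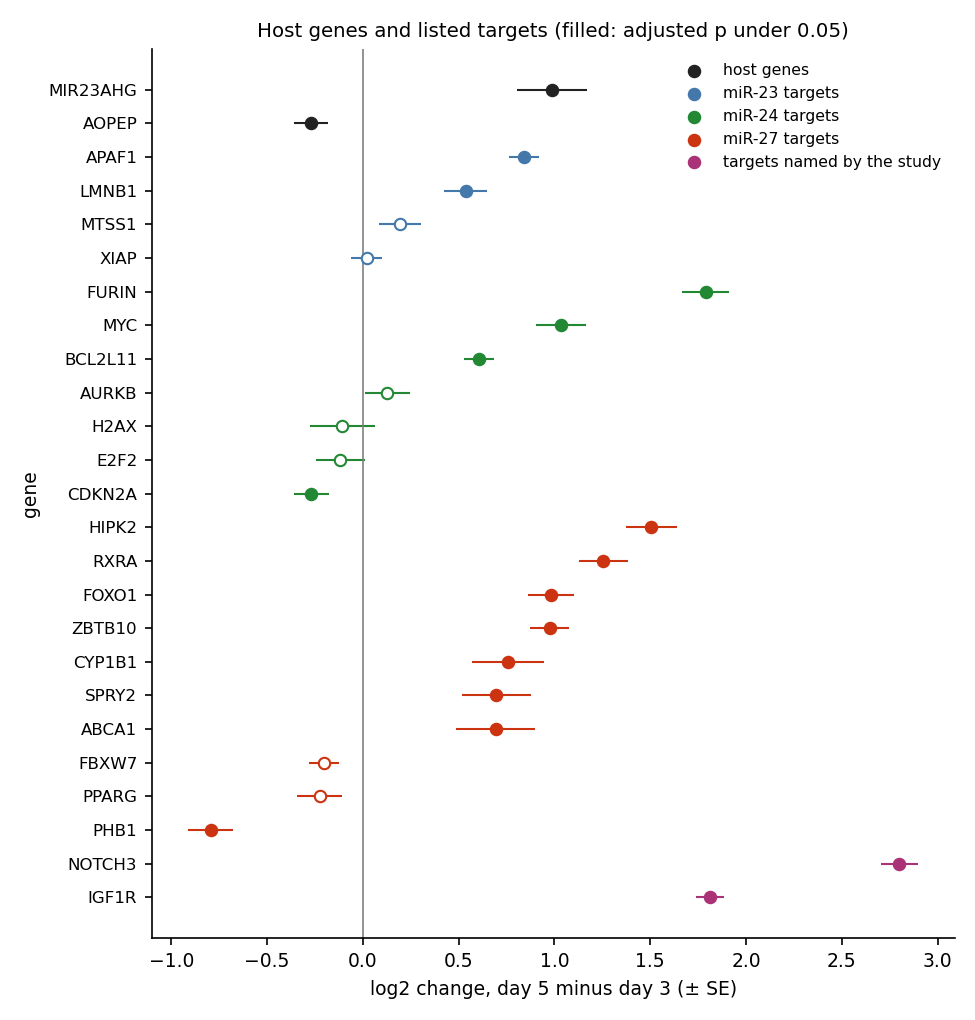
Log2 change from day 3 to day 5 ± SE (x axis) of the host genes and of the tested targets of each family, with filled symbols for adjusted p under 0.05. MIR23AHG is at 0.99 and AOPEP at -0.27. Of the 10 miR-27 targets 7 are filled to the right of 0, with 29.3% of all genes called higher.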

How the data were processed

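HCT116 cells on days 3, 5 and 7 were profiled by small-RNAseq (9 libraries), and on days 3 and 5 by whole transcriptome RNAseq (6 libraries). Groups came from the sample labels. The authors trimmed small RNA reads with Cutadapt, aligned them to miRNA sequences (mature and hairpin) of GRCh37 and normalized them, naming TMM and edgeR. The deposited small RNA values are log2 values, the same 9 columns in both tables, and the transformation behind them is not given in the sources used here. For 38055 genes the authors deposited a normalized signal (strand-specific mapping to hg38, TMM named). These values were whole multiples of 1 read for 100% of values (tolerance 0.01 of a read), so reads were recovered. The deposited columns of fold changes and p-values, made by the authors, were not used.

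limma 3.58.1 (R 4.3.3) was fitted to the log2 values as deposited, and to log2(value + 1) for genes, over features that reached a back-transformed value of 10 in 3 or more libraries of the fit. Day 7 against day 5 came from a fit over all 9 libraries and the other comparisons from their 6. Benjamini-Hochberg adjustment ran over all features tested, with 0.05 as threshold. Ratios were tested by limma with all values relative to the denominator miRNA and by exact permutation, shares by exact permutation alone. CPM were computed from the back-transformed values and their sum in each library. edgeR 4.0.16 and DESeq2 1.42.0 on the recovered reads called 12280 of 20129 and 11110 of 25512 genes, against 11450 of 20129 by limma. The fits were checked on simulated data. Library totals, median centring, no filter, trend and robust priors, a replicate block, other sets of libraries, a pseudocount of 0.1 and leaving out each library were tried.

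The genes named were the 7 members, the other mature products of their 6 hairpins, the host genes, textbook targets, the targets of miR-27a named by the study, and for miR-27a-3p and miR-27b-3p the 3 miRNAs outside the members, of at least 100 CPM, with the smallest SD of their log2 ratio. The members and all lists were chosen with earlier results of these data known. miR-3074-5p was added after its values were seen. Of 39 listed genes 38 were found, MIR23AHG by identifier alone. A further 2 textbook targets of the initial list are not reported here, so the counts and medians describe the shortened list alone. Loci and 3′UTRs came from a GENCODE annotation of GRCh38, mature sequences from RefSeq (GRCh38.p14), and figures were drawn with matplotlib 3.10.9 in Python 3.11.15.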

Additional observations from a re-analysis of the deposited data

How the results depend on the processing

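The number of members called higher from day 3 to day 7 was 6 on the deposited scale and 3 called (2 higher, 1 lower) relative to the miRNA total. From day 3 to day 5 it was 0, and 1 (miR-27a-5p) with all 3 days in one fit, with median centring, relative to the total or with trend and robust priors. Over all miRNAs 80 of 539 were called on the deposited scale, and 101 of 567 with all 3 days in one fit. With median centring, relative to the total and with trend and robust priors these were 124, 135 and 91 of 539. Relative to the total, direction turned from day 3 to day 7 for miR-24-3p (-0.11), miR-27b-3p (-0.0080) and miR-24-2-5p (-0.36), and from day 5 to day 7 for miR-27a-5p (-0.18), miR-24-3p (-0.10) and miR-23a-5p (-0.29). With median centring, changes from day 3 to day 5 turned for miR-23a-3p (0.0022), miR-27a-3p (0.011) and miR-24-3p (0.045). The mean miRNA total was 1.41 times higher on day 7 than on day 3. The cause of the turns under median centring was not tested. Without the filter on low values 4, 0 and 5 members were called (day 7 against day 3, day 5 against day 3, day 7 against day 5), and 13 host genes and targets. In the same order 221, 50 and 164 of all 2167 miRNAs were called without the filter, and 9235 of 38055 genes. With the filter 300 of 559, 80 of 539 and 251 of 567 miRNAs were called, and 11450 of 20129 genes.

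With a replicate block, 6, 0 and 6 members were called in the 3 comparisons, as without it, and 16 host genes and targets instead of 18, without AOPEP and CDKN2A. Over all features 302 of 559, 71 of 539 and 254 of 567 miRNAs were called with the block, and 10533 of 20129 genes. The change of miR-27a-3p relative to miR-27b-3p was 0.22 to day 7 from day 3 (adjusted p = 0.0844) and 0.16 from day 5 (adjusted p = 0.0601), and that of miR-27a-5p relative to miR-27b-5p was 0.36 to day 5 (adjusted p = 0.152), all past the threshold without the block. The share of all members kept its differences of 0.191, -0.142 and 0.333 percentage points under the block, with an exact p of 0.25, the smallest that 3 pairs allow. The labels do not say that a number marks a shared dish or batch, and deviations of same-numbered libraries correlated by -0.0767 to 0.116 (small RNA) and -0.0112 to 0.0343 (transcriptome), so the numbers were not taken as pairs.

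Without 1 library at a time, the members called numbered 5 to 6 (day 7 against day 3), 0 (day 5 against day 3) and 5 to 6 (day 7 against day 5), and host genes and targets 15 to 18. In the same order all miRNAs called ranged from 216 of 542 to 296 of 552, 36 of 532 to 118 of 533, and 173 of 557 to 319 of 563. All genes called ranged from 9780 of 19698 to 11300 of 19737. Ratio changes, in log2, ranged as follows for those whose call or direction moved. For miR-27a-3p to miR-27b-3p they were 0.19 to 0.27 (day 7 against day 3) and 0.15 to 0.17 (day 7 against day 5). For miR-23a-3p to miR-23b-3p they were 0.16 to 0.19 (day 7 against day 5), and for miR-27a-5p to miR-27b-5p 0.31 to 0.40 (day 5 against day 3). For miR-27b-3p to miR-27b-5p they were -0.15 to 0.062 (day 5 against day 3). For miR-23a-3p to miR-27a-3p they were -0.040 to 0.026, -0.028 to 0.038 and -0.019 to 0.029 (days 5 and 7 against day 3, day 7 against day 5), and for miR-23b-3p to miR-27b-3p 0.15 to 0.20 (day 5 against day 3) and -0.036 to 0.032 (day 7 against day 5). From day 3 to day 5, uncalled changes crossed 0 for miR-23a-3p (-0.15 to 0.0059), miR-27a-3p (-0.11 to 0.014), miR-24-3p (-0.10 to 0.060), miR-23b-3p (-0.011 to 0.14), XIAP (-0.0099 to 0.069) and H2AX (-0.24 to 0.068), and from day 5 to day 7 for miR-24-2-5p (-0.26 to 0.024). The cause was not tested. How deeply each small RNA library was sequenced cannot be read from these values, and 3 libraries per day limit every test.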
